A study of Mus musculus with 9 samples.

Results

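The Hes and Hey genes encode basic helix-loop-helix repressors. The 6 members Hes1, Hes5, Hes6, Hey1, Hey2 and Heyl were chosen by symbol, through their Ensembl identifiers, from the 55704 genes of a bulk RNA-seq table of mouse neural stem cells (NSCs). The table holds 9 libraries in 3 groups of 3. All cells were NSCs from the subventricular zone (SVZ) of adult C57BL/6 mice aged 8 to 9 weeks, with 2 female and 2 male mice pooled per isolation, and had been passaged in proliferation medium with bFGF and EGF. The bFGF/EGF-treated NSCs were collected at day 0, 16 to 18 h after plating on poly-L-ornithine and laminin. For the bFGF/BMP4-treated NSCs EGF was then replaced by BMP4, and for the BMP4-treated NSCs both bFGF and EGF were, with each factor at 20 ng/mL and collection at day 6. The proliferation medium is listed with B27 minus vitamin A and the BMP4 media with B27, so treatment, time in culture and this supplement cannot be told apart in a comparison with the bFGF/EGF-treated NSCs. Those 3 libraries are the shared control of both such comparisons. The submitters call the samples of a group biological replicates, and whether each came from its own isolation is not given in the sources used here, so the p-values measure the spread between these samples.

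Hes and Hey proteins are best known as effectors of the Notch pathway. A ligand of the Delta or Jagged type on one cell activates a Notch receptor on its neighbour, the cleaved receptor joins the DNA-binding protein RBPJ in the nucleus, and the complex switches on Hes and Hey genes. Their products recruit co-repressors and hold down proneural genes. Hes1 and Hes5 keep neural progenitors undifferentiated, Hes6 is an atypical member that can oppose Hes1 and is raised by proneural factors, and Hey1, Hey2 and Heyl form the related Hey subfamily. BMP signalling can also act on several of these genes through SMAD proteins, and Hey genes are also prominent in blood vessel cells.

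Reference promoters of Hes5 and Hey2 are shown first because both genes were higher in the BMP4-containing media and both windows hold letters of the RBPJ motif on each strand. The sequences are from RefSeq (GRCm38.p6) and run from 250 bases before to 50 bases after the gene start. The window of Hes5 is chr4:154960673-154960972 on the plus strand and that of Hey2 is chr10:30842734-30843033 on the minus strand. They are written 5′ to 3′ along the gene, with TGGGAA and its reverse complement TTCCCA in capitals.
Hes5: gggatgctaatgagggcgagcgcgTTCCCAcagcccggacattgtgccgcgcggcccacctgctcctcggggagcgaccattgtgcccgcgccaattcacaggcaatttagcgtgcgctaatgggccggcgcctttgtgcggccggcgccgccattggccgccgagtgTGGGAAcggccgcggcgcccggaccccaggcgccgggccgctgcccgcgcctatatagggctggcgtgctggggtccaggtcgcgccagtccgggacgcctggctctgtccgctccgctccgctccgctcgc
Hey2: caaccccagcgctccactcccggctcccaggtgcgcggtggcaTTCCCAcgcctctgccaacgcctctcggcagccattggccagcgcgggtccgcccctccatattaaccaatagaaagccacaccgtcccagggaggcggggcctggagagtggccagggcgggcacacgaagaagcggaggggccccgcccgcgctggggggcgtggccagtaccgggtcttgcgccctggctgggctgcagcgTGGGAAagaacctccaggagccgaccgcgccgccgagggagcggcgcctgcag
In the Hes5 window the 2 matches begin at -226 and -82 from the start site, and in the Hey2 window at -207 and -3. Of 32851 RefSeq promoter windows of this length, 25.6% hold at least 1 match on either strand and 3.79% hold at least 2. Both windows were shown because they hold this motif, so these shares carry no test. The windows behind this and the following shares were not matched for base composition. The palindrome GGCGCC, a SMAD-type motif, occurs 4 times in the Hes5 window, at -123, -106, -69 and -54, and at least 4 times in 0.0548% of all windows. It occurs once in the Hey2 window, at 40 bases after the start, and at least once in 11.9% of windows. Neither motif shares bases with the other in these windows.

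Hes6 has 2 entries, and neither holds the RBPJ motif, the SMAD-type motif, the E box CACGTG or, on either strand, the class C site CACGCG. The entry at chr1:91413173-91413472 on the minus strand, is shown here because Hes6 was the abundant member that differed least between the groups. Here no letter is in capitals, as there is no RBPJ match.
Hes6: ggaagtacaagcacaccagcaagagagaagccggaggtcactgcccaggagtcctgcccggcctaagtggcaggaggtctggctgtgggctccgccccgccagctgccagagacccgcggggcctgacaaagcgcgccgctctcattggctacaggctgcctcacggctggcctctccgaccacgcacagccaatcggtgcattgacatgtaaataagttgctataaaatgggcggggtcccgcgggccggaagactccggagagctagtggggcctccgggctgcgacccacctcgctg
This window holds the N box CACNAG, a site type that Hes proteins bind, at -237 and at 16 bases after the start, and 11.3% of all windows hold at least 2. The E box occurs in 7.15% of windows and the class C site in 9.27%. A match describes letters and not a bound site. Hes1, Hey1 and Heyl have no entry.

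FPKM is a fragment number divided by the length of the gene and the size of the library. By the fragment numbers these values contain, 15892854 to 17419822 fragments lay on genes per library. Over genes, log2 levels correlated at 0.950 to 0.964 within groups and at 0.810 to 0.915 across them, so no library stood apart within its group. The NSC marker Sox2 was at a mean of 167 FPKM in the bFGF/EGF-treated NSCs and at 137 FPKM in both other groups. Differences were tested with limma on log2(FPKM + 0.1) over the 20207 genes whose mean reached 0.1 FPKM, and the threshold was an adjusted p (Benjamini-Hochberg) of at most 0.05 with a fold change of at least 2. In the bFGF/BMP4-treated NSCs 3 of the 5 members tested passed against the bFGF/EGF-treated NSCs, all higher, where 30.6% of all genes passed, 16.5% higher and 14.1% lower. The groups did not overlap for 5 of 5 members, against 57.7% of all genes. In the BMP4-treated NSCs 4 of 5 passed against the same control, 3 higher and 1 lower, where 36.6% of all genes passed, 21.3% higher and 15.4% lower, and the groups did not overlap for 4 of 5, against 60.4% of all genes. Between the BMP4-treated and the bFGF/BMP4-treated NSCs 0 of 5 passed, where 13.5% of all genes did, 8.41% higher and 5.14% lower, and the groups did not overlap for 2 of 5 (Hes5 and Hey1), against 38.7% of all genes. In that last comparison 3 members (Hes5, Hes6 and Hey1) had an unadjusted p under 0.05. The share of all genes with such a p was not computed, so this count cannot be weighed. By an adjusted p of at most 0.05 alone, 4271 of 20207 genes passed there and 0 of the 5 members did. With limma-voom 1 member (Hes5) passed the threshold there, where 2992 of 20207 genes did. The median log2 fold change of the 5 members was 2.11, 2.23 and -0.72 in the 3 comparisons, against 0.06, 0.10 and 0 over all genes tested. Heyl lay below the filter. In bulk RNA, fewer cells with a transcript and less transcript per cell cannot be told apart.

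**Figure D1:**
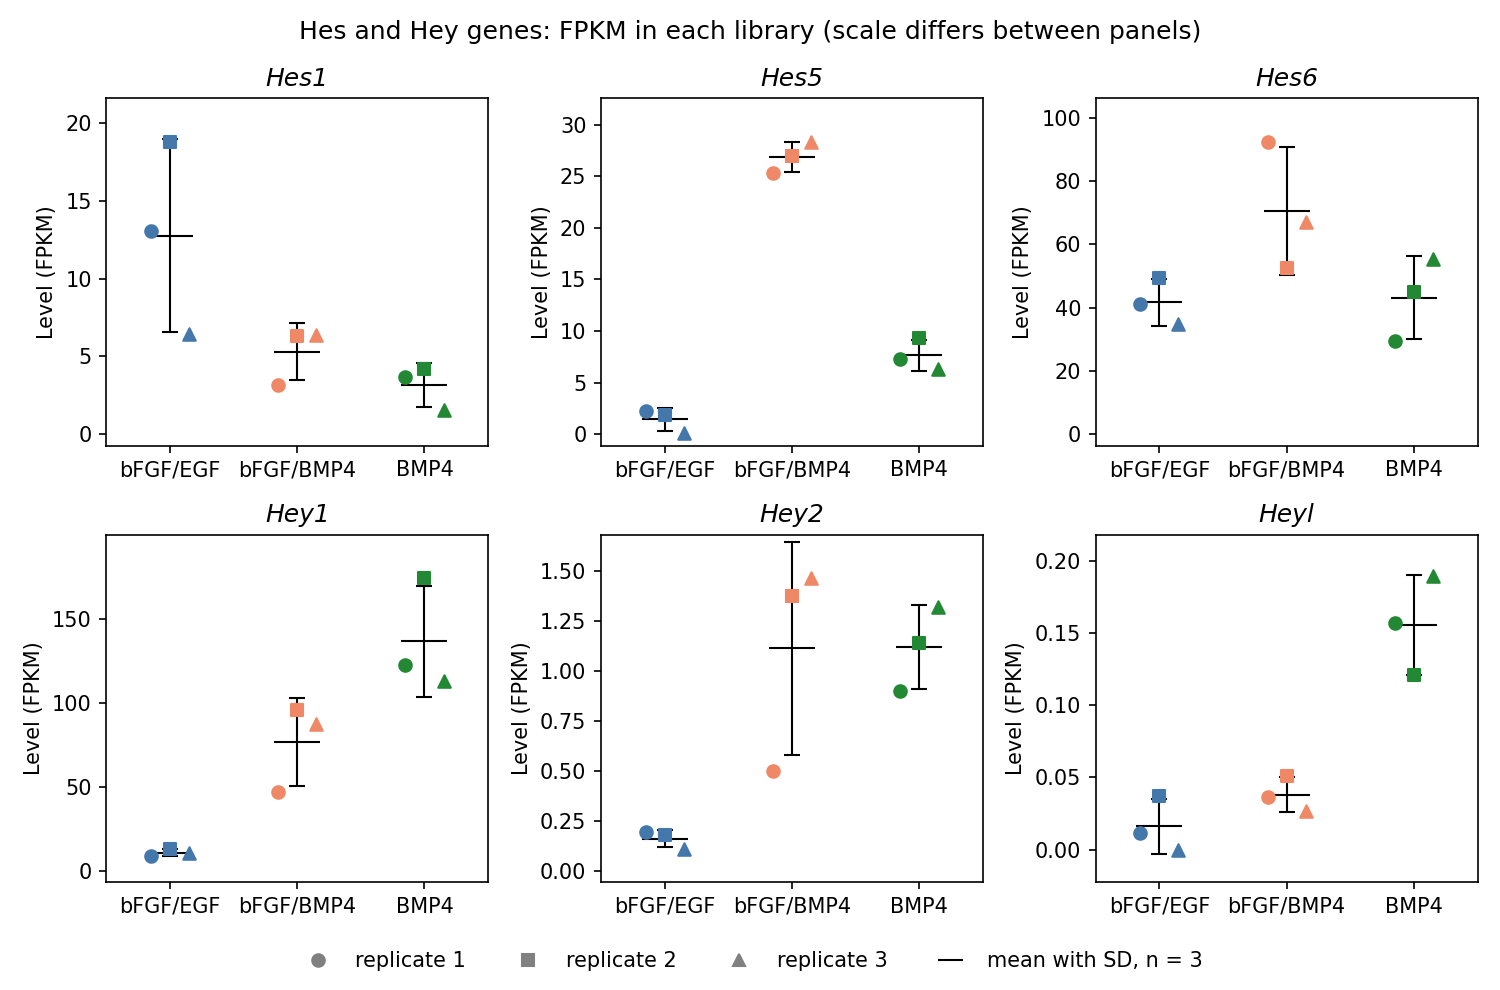
Level (FPKM, linear axis with its own scale in each panel) of the 6 genes in the 9 libraries. Points are libraries, with a symbol for each replicate number, and bars are the mean with SD (n = 3). Hes1 is highest in the bFGF/EGF-treated NSCs, Hes5 and Hes6 in the bFGF/BMP4-treated NSCs (means 26.9 and 70.6 FPKM), and Hey1 in the BMP4-treated NSCs (136 FPKM).

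Hes1 (ENSMUSG00000022528; GRCm39 chromosome 16, 29882134 to 29886643, plus strand) is the classic Notch effector of neural progenitors and in many cells is expressed in oscillations. Its level was 13.1, 18.8 and 6.42 FPKM in the 3 bFGF/EGF libraries, 3.18, 6.34 and 6.37 FPKM in the bFGF/BMP4 libraries, and 3.66, 4.21 and 1.55 FPKM in the BMP4 libraries. All bFGF/EGF libraries were above all others, but the lowest of them, replicate 3, lay just above the 2 highest bFGF/BMP4 libraries. In the BMP4-treated NSCs Hes1 fell to 0.246 times the control mean (log2 fold change -1.97, SE 0.46, adjusted p = 0.0047). In the bFGF/BMP4-treated NSCs the ratio of means was 0.415 and the difference did not pass (log2 fold change -1.19, SE 0.46, 95% interval -2.22 to -0.15, adjusted p = 0.057). That call was close to the threshold, and 7 of 18 alternatives passed it. Without bFGF/EGF replicate 3 the log2 fold change was -1.61 (adjusted p = 0.020), without BMP4 replicate 3 it was -1.19 (adjusted p = 0.044), and limma-voom gave -1.32 (adjusted p = 0.0091). Without bFGF/EGF replicate 2 it was -0.85 (adjusted p = 0.21) and without bFGF/BMP4 replicate 1 it was -0.86 (adjusted p = 0.20), both short of a fold of 2. Both BMP4-containing groups overlapped, with a log2 fold change of -0.78 in the BMP4-treated against the bFGF/BMP4-treated NSCs (95% interval -1.82 to 0.25, adjusted p = 0.29). Hes1 was above 79.2% of tested genes in the bFGF/EGF-treated NSCs and above 53.6% in the BMP4-treated NSCs.

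Hes5 (ENSMUSG00000048001; chromosome 4, 155045373 to 155046828, plus strand), whose promoter is shown above, is a Notch target that marks neural stem cells. Its level was 2.29, 1.86 and 0.166 FPKM in the bFGF/EGF libraries, 25.3, 26.9 and 28.3 FPKM in the bFGF/BMP4 libraries, and 7.32, 9.29 and 6.32 FPKM in the BMP4 libraries. The 3 groups did not overlap, and the bFGF/BMP4 libraries were the closest together of any member in any group, with a coefficient of variation of 5.56%. The third bFGF/EGF library rested on 4 fragments, against 53 and 40 in the other two. Against the bFGF/EGF-treated NSCs the mean was 18.7 times as high in the bFGF/BMP4-treated NSCs (log2 fold change 4.65, SE 0.66, adjusted p = 2.7e-04) and 5.32 times as high in the BMP4-treated NSCs (2.83, SE 0.66, adjusted p = 0.0047). Without bFGF/EGF replicate 3 these log2 fold changes were 3.64 (adjusted p = 4.4e-06) and 1.82 (adjusted p = 7.2e-05). Hes5 stood above 44.2% of tested genes in the bFGF/EGF-treated NSCs, above 90.7% in the bFGF/BMP4-treated NSCs and above 70.3% in the BMP4-treated NSCs.

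The test of Hes5 between the BMP4-containing groups depended on that same control library. The BMP4-treated NSCs were at 0.284 times the mean of the bFGF/BMP4-treated NSCs, and the lowest bFGF/BMP4 library (25.3 FPKM) was far above the highest BMP4 library (9.29 FPKM). Only 2.62% of tested genes had a lower log2 fold change than the -1.82 of Hes5 (SE 0.66, 95% interval -3.30 to -0.33), yet the adjusted p was 0.084 with one estimate of spread over all 9 libraries. With only the 6 libraries of these groups in the fit the adjusted p was 0.0010, without bFGF/EGF replicate 3 it was 1.6e-04, with a pseudocount of 1 it was 0.0045, and with limma-voom it was 6.1e-04. Over its alternatives the log2 fold change was -1.97 to -1.69, and the adjusted p ran from 1.6e-04 to 0.21. The lncRNA gene Gm20421 lies on the opposite strand across Hes5, and whether the counting used strand is not given in the sources used here. It was listed at 0.0842 to 1.2 FPKM. In GENCODE vM39 Hes1, Hes6 and Hey1 also have a lncRNA gene on the other strand (Gm60905, Gm57139 and Gm64520), whose levels were not analysed here.

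**Figure D2:**
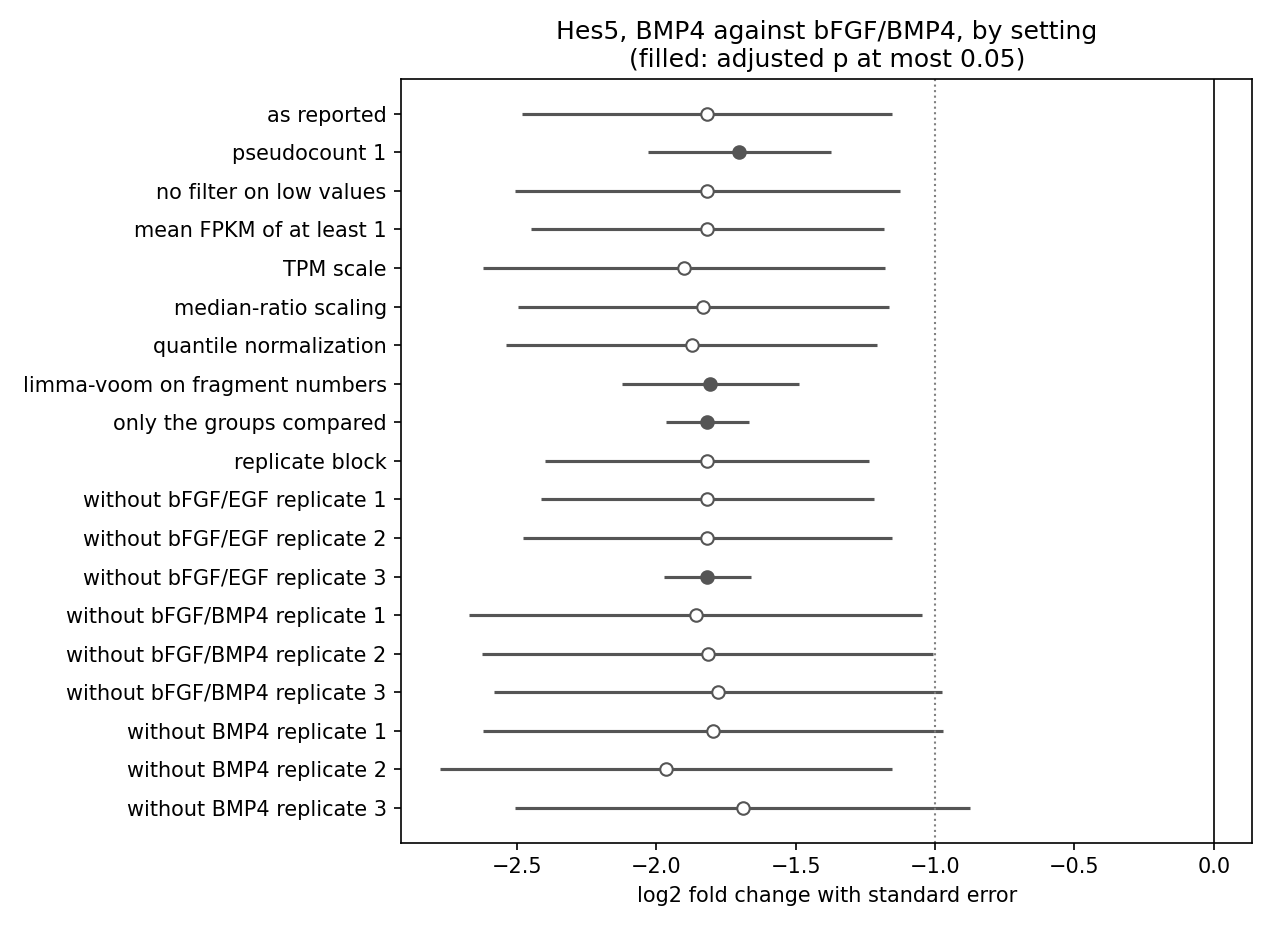
Log2 fold change of Hes5 (horizontal axis) in BMP4-treated against bFGF/BMP4-treated NSCs under each setting (rows), with its standard error. The dotted line marks a fold change of 2. All points lie between -1.97 and -1.69, while the bars shorten without bFGF/EGF replicate 3 and with only the compared groups, and 4 alternatives reach an adjusted p of at most 0.05 (filled).

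Hes6 (ENSMUSG00000067071; chromosome 1, 91339204 to 91342103, minus strand), the atypical member that can oppose Hes1, was abundant in all libraries, above 93.9% to 97.0% of tested genes by group mean. Its level was 41.0, 49.5 and 34.7 FPKM in the bFGF/EGF libraries, 92.4, 52.4 and 66.9 FPKM in the bFGF/BMP4 libraries, and 29.3, 44.8 and 55.3 FPKM in the BMP4 libraries. The bFGF/BMP4 libraries all lay above the bFGF/EGF libraries, and the BMP4 libraries overlapped both other groups. The mean in the bFGF/BMP4-treated NSCs was 1.69 times that of the bFGF/EGF-treated NSCs, short of the fold threshold of 2 (log2 fold change 0.73, SE 0.26, adjusted p = 0.041). The BMP4-treated NSCs were at 1.03 times the control mean, with a 95% interval of the log2 fold change from -0.57 to 0.60 (adjusted p = 0.97). Between the BMP4-treated and the bFGF/BMP4-treated NSCs the log2 fold change was -0.72 (95% interval -1.30 to -0.13, adjusted p = 0.084). No alternative that kept the fold threshold took Hes6 past it in any comparison.

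Hey1 (ENSMUSG00000040289; chromosome 3, 8726956 to 8732385, minus strand), a Hey repressor that responds to Notch and to BMP in several cell types, had the largest range in FPKM of the members. Its level was 8.61, 13.1 and 10.5 FPKM in the bFGF/EGF libraries, 47.0, 95.3 and 87.4 FPKM in the bFGF/BMP4 libraries, and 122, 174 and 113 FPKM in the BMP4 libraries. The groups did not overlap, and the first bFGF/BMP4 library was the low one of its group. Hey1 rose to 7.12 times the control mean in the bFGF/BMP4-treated NSCs (log2 fold change 2.78, SE 0.28, adjusted p = 2.7e-05) and to 12.7 times in the BMP4-treated NSCs (3.65, SE 0.28, adjusted p = 3.1e-06). Both calls held under all 18 alternatives. The BMP4-treated NSCs were at 1.78 times the mean of the bFGF/BMP4-treated NSCs, a difference that did not pass (log2 fold change 0.87, 95% interval 0.25 to 1.49, adjusted p = 0.051). Without bFGF/BMP4 replicate 2 it was 1.06 (adjusted p = 0.048), and without bFGF/BMP4 replicate 1 it was 0.55 (adjusted p = 0.14). By group mean Hey1 moved from above 76.3% of tested genes to above 97.4% and 98.8%.

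Hey2 (ENSMUSG00000019789; chromosome 10, 30708350 to 30718828, minus strand), the second Hey repressor, whose promoter is shown above, was scarce. Its level was 0.192, 0.179 and 0.111 FPKM in the bFGF/EGF libraries, 0.501, 1.38 and 1.47 FPKM in the bFGF/BMP4 libraries, and 0.898, 1.14 and 1.32 FPKM in the BMP4 libraries. All libraries with BMP4 were above all without, and they rested on 37 to 100 fragments against 9 to 15. Hey2 rose by a log2 fold change of 2.11 (SE 0.38, adjusted p = 0.0012) in the bFGF/BMP4-treated NSCs and of 2.23 (SE 0.38, adjusted p = 7.0e-04) in the BMP4-treated NSCs. At a pseudocount of 1, which is above its level in the control, these became 0.83 and 0.87 and no longer reached a fold of 2. The BMP4-containing groups overlapped, with a log2 fold change of 0.11 (95% interval -0.74 to 0.97, adjusted p = 0.88). The library that was low for Hey1, bFGF/BMP4 replicate 1, was also the low one for Hey2, and without it that log2 fold change was -0.33 (adjusted p = 0.50).

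Heyl (ENSMUSG00000032744; chromosome 4, 123127349 to 123143682, plus strand), a Hey repressor known from vessel wall and muscle, was near the detection limit. Its level was 0.0115, 0.0371 and 0 FPKM in the bFGF/EGF libraries (1, 3 and 0 fragments), 0.0365, 0.0510 and 0.0266 FPKM in the bFGF/BMP4 libraries (3, 4 and 2 fragments), and 0.157, 0.121 and 0.19 FPKM in the BMP4 libraries (13, 10 and 16 fragments). The BMP4 libraries were above all others, and the other groups overlapped. From the summed fragments, 39 in the BMP4-treated and 4 in the bFGF/EGF-treated NSCs, the ratio was 10.1 with an exact 95% interval of 3.63 to 38.8, and against the 9 fragments of the bFGF/BMP4-treated NSCs it was 4.08 (1.95 to 9.59). These intervals cover counting error only. With no filter on low values limma gave the BMP4-treated NSCs a log2 fold change of 1.14 against the bFGF/EGF-treated NSCs (SE 0.22, adjusted p = 0.0029) and of 0.88 against the bFGF/BMP4-treated NSCs (SE 0.22, adjusted p = 0.029, short of a fold of 2). Between the bFGF/BMP4-treated and the bFGF/EGF-treated NSCs the ratio was 2.46 (0.687 to 10.9), and that fit gave 0.26 (SE 0.22, adjusted p = 0.45).

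**Figure D3:**
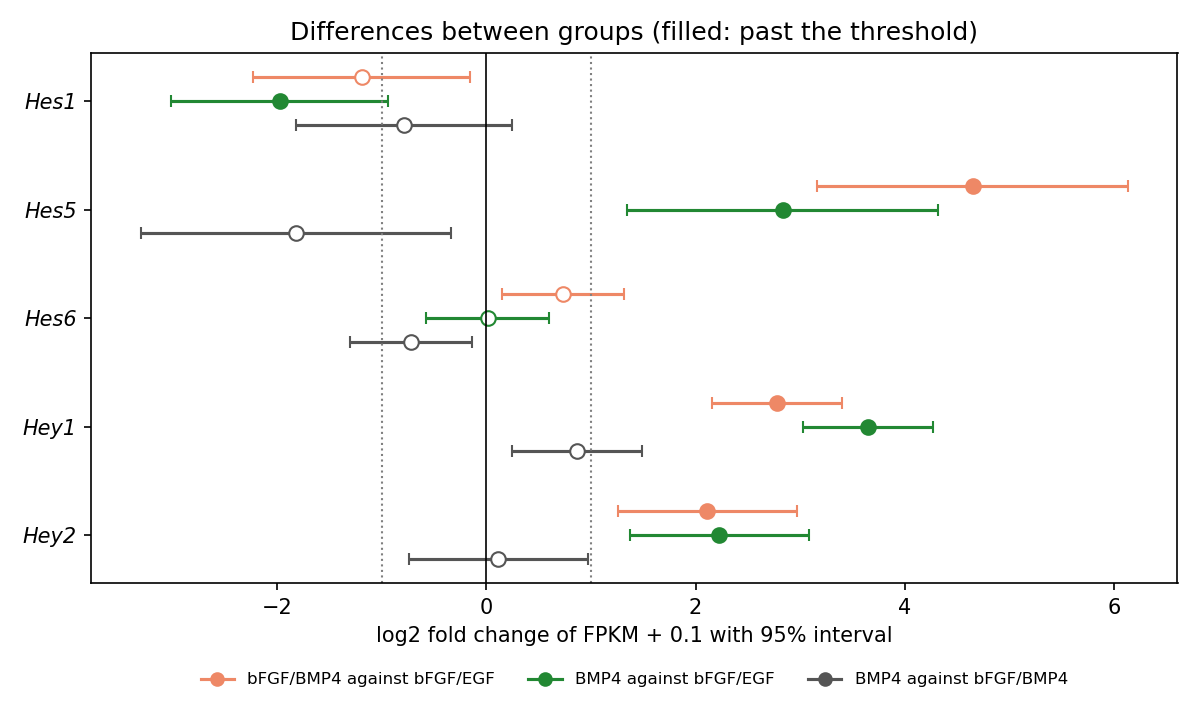
Log2 fold change of FPKM + 0.1 with its 95% interval (horizontal axis, intervals not adjusted for the number of genes) of the 5 tested members in 3 comparisons. Filled points passed an adjusted p of 0.05 and a fold of 2 (dotted lines). Hey1, Hey2 and Hes5 lie to the right in both comparisons with the bFGF/EGF-treated NSCs and Hes1 to the left, while every point for BMP4 against bFGF/BMP4 is open.

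The make-up of the family differed between the groups. FPKM is scaled by gene length, so levels can be summed over members. The sum was 51.9 to 83.5 FPKM in the bFGF/EGF libraries, 168 to 191 FPKM in the bFGF/BMP4 libraries and 164 to 233 FPKM in the BMP4 libraries. Hes6 gave 63.0% ± 3.78 (SD, n = 3) of it in the bFGF/EGF-treated NSCs, 39.6% ± 13.6 in the bFGF/BMP4-treated NSCs and 22.7% ± 7.28 in the BMP4-treated NSCs. The share of Hey1 went the other way, at 16.4% ± 3.56, 42.0% ± 12.6 and 70.9% ± 6.35. Hes1 gave 18.3%, 2.90% and 1.64%, and Hes5 gave 2.02%, 14.9% and 4.0%. The share of Hes5 in the bFGF/BMP4-treated NSCs varied little between libraries (SD 0.146 percentage points) although those of Hes6 and Hey1 varied most there. The first bFGF/BMP4 library had the most Hes6 and the least Hes1, Hes5, Hey1 and Hey2 of its group.

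**Figure D4:**
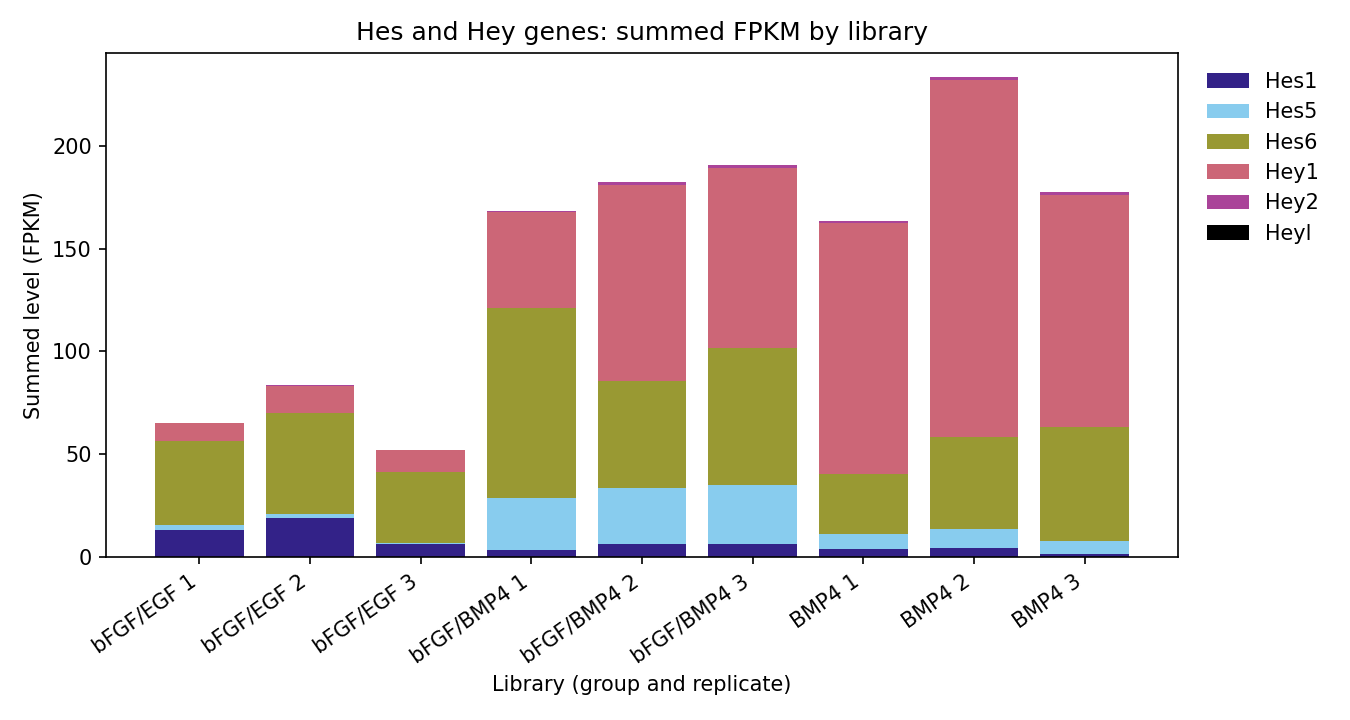
Summed level (FPKM, from 0) of the 6 members in each library, stacked by gene. The bFGF/EGF libraries sum to 51.9 to 83.5 FPKM, mostly Hes6, and the BMP4 libraries to 164 to 233 FPKM, mostly Hey1. Hey2 and Heyl are too low to see at this scale in most libraries.

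In order of mean level the members ran Hes6, Hes1, Hey1, Hes5, Hey2 and Heyl in the bFGF/EGF-treated NSCs, and Hes1 and Hey1 overlapped there (6.42 to 18.8 and 8.61 to 13.1 FPKM), as did Hes5 and Hey2 (0.166 to 2.29 and 0.111 to 0.192 FPKM). In the bFGF/BMP4-treated NSCs the order was Hey1, Hes6, Hes5, Hes1, Hey2 and Heyl, with Hey1 (47.0 to 95.3 FPKM) and Hes6 (52.4 to 92.4 FPKM) overlapping. In the BMP4-treated NSCs it was Hey1, Hes6, Hes5, Hes1, Hey2 and Heyl with no overlap between neighbours. Within a library the ratio of Hey1 to Hes1 was 0.660, 0.699 and 1.64 in the bFGF/EGF libraries, 14.8, 15 and 13.7 in the bFGF/BMP4 libraries, and 33.4, 41.3 and 73.0 in the BMP4 libraries. The ratio of Hes5 to Hes1 was 0.175, 0.0988 and 0.0259, then 7.98, 4.25 and 4.44, then 2.00, 2.20 and 4.08. Both ratios were below 2 in all bFGF/EGF libraries and at or above 2 in all others.

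Over the 9 libraries the log2 levels of Hey1 and Hey2 were most alike among the members (Pearson r = 0.947), followed by Hes5 and Hey2 (0.817), and those of Hes1 and Hey1 were most opposed (-0.703). These values describe 9 libraries that share 3 treatments and carry no test. Among protein-coding genes with a mean of at least 5 FPKM, the 3 most like Hes5 were Dtnbp1 (r = 0.980), Pim3 (0.975) and Ptpn11 (0.973). For Hey1 they were Niban2 (0.993), Cdh22 (0.992) and Scg2 (0.992), for Hey2 Arl8b (0.988), Kcnk13 (0.983) and Fzd7 (0.978), and for Heyl Adora1 (0.980), Fzd5 (0.971) and Ddr1 (0.968). For Hes1 they were Sumo3 (0.966), Yaf2 (0.964) and Zdhhc16 (0.964), and for Hes6 Dele1 (0.938), Klc2 (0.920) and Ndp (0.919). Hey1 had 965 genes with r above 0.9 and Hes6 had 4, out of 7457 for each.

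The closest relatives outside the 6 members were 6 further Hes-related repressors, of which 4 were tested. In both comparisons with the bFGF/EGF-treated NSCs 2 rose and 0 fell (list median log2 fold change 1.09 and 1.07), and in the BMP4-treated against the bFGF/BMP4-treated NSCs 0 rose and 1 fell (median -0.26). Bhlhe41, a repressor also known from the circadian clock, had group means of 1.44, 26.2 and 11.7 FPKM, in the same order of groups as Hes5. Its log2 fold changes were 4.14 (adjusted p = 5.3e-07) and 2.97 (2.9e-06) against the control and -1.17 (0.0040) between the BMP4-containing groups. Hes7, the oscillator of somite formation, was at 0.177, 0.802 and 0.544 FPKM, with log2 fold changes of 1.71 (adjusted p = 0.0054) and 1.09 (0.041), and the latter call was lost without any 1 of 7 libraries. Both calls of Hes7 were lost at a pseudocount of 1. Hes2 and Helt were listed at 0 in all libraries. Bhlhe40 and Hes3 did not pass in any comparison.

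The upstream side of the pathway moved in both directions. Of 12 Notch receptors and ligands 4 rose and 4 fell in each comparison with the bFGF/EGF-treated NSCs (list medians 0.57 and 0.29), and 3 rose and 2 fell in the BMP4-treated against the bFGF/BMP4-treated NSCs (median 0.03). Among receptors, Notch1 was at means of 24.2, 34.4 and 25.7 FPKM and Notch2 at 4.49, 6.78 and 7.82 FPKM, and neither passed the threshold in any comparison. Notch3 rose from 3.52 FPKM to 18.7 and 16.7 FPKM (log2 fold change 2.38, adjusted p = 5.4e-06, and 2.20, adjusted p = 5.8e-06). The ligand Dll1 fell from 16.4 to 5.27 and 2.03 FPKM (log2 fold change -1.60, adjusted p = 2.4e-04, and -2.97, adjusted p = 3.0e-06) and was also lower in the BMP4-treated than in the bFGF/BMP4-treated NSCs (-1.37, adjusted p = 0.0017). Dll3, an inhibitory ligand, fell from 15.4 to 1.82 and 2.10 FPKM. The ligand Jag1 split the BMP4-containing groups. It was at 15.3 FPKM in the control, 34.1 FPKM in the bFGF/BMP4-treated NSCs and 0.818 FPKM in the BMP4-treated NSCs, so that the latter were lower by a log2 fold change of -5.24 (SE 0.37, adjusted p = 1.3e-05). Its rise with bFGF/BMP4 (1.06, adjusted p = 0.039) was lost without any 1 of 6 libraries, and its fall with BMP4 (-4.18, adjusted p = 8.9e-06) was not lost without any. Dner, a neuronal Notch ligand, rose from 37.8 to 188 and 155 FPKM, and Dlk2, a Delta-like inhibitor, rose in the BMP4-treated NSCs to 7.01 FPKM from 0.845 FPKM (2.89, adjusted p = 9.3e-06).

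Of 33 genes for processing, the transcription complex and modulation of Notch signals, 3 rose and 5 fell in the bFGF/BMP4-treated NSCs (list median -0.03), 3 rose and 7 fell in the BMP4-treated NSCs (median -0.05), and 1 rose and 2 fell between them (median -0.13). The DNA-binding partner Rbpj was at 6.70, 3.88 and 4.98 FPKM and was lower by less than a fold of 2 in both comparisons with the control (-0.77, adjusted p = 4.7e-04, and -0.42, adjusted p = 0.013). Nrarp, itself a Notch target and a feedback inhibitor, moved against Hes5, Hey1 and Hey2. It fell from 1.44 FPKM to 0.260 and 0.0712 FPKM (-2.07, adjusted p = 4.6e-04, and -3.12, adjusted p = 2.2e-05). Nrarp rested on at most 13 fragments in a bFGF/BMP4 library and at most 3, the detection limit used here, in a BMP4 library. The call with bFGF/BMP4 was lost at a pseudocount of 1. The fringe glycosyltransferase Mfng fell with bFGF/BMP4 (1.67 to 0.0974 FPKM, -3.14, adjusted p = 2.0e-04), and Lfng fell with BMP4 (111 to 43.9 FPKM, -1.30, adjusted p = 3.6e-04). The ubiquitin ligase gene Neurl1a, which acts on ligands, fell in both (-4.76 and -4.46), as did the deacetylase gene Hdac2 (-1.25 and -1.42). Psen2, a subunit of the protease that cleaves Notch, and Dtx1, a ubiquitin ligase of the pathway, rose in both (1.42 and 1.99 for Psen2, 1.27 and 1.52 for Dtx1).

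**Figure D5:**
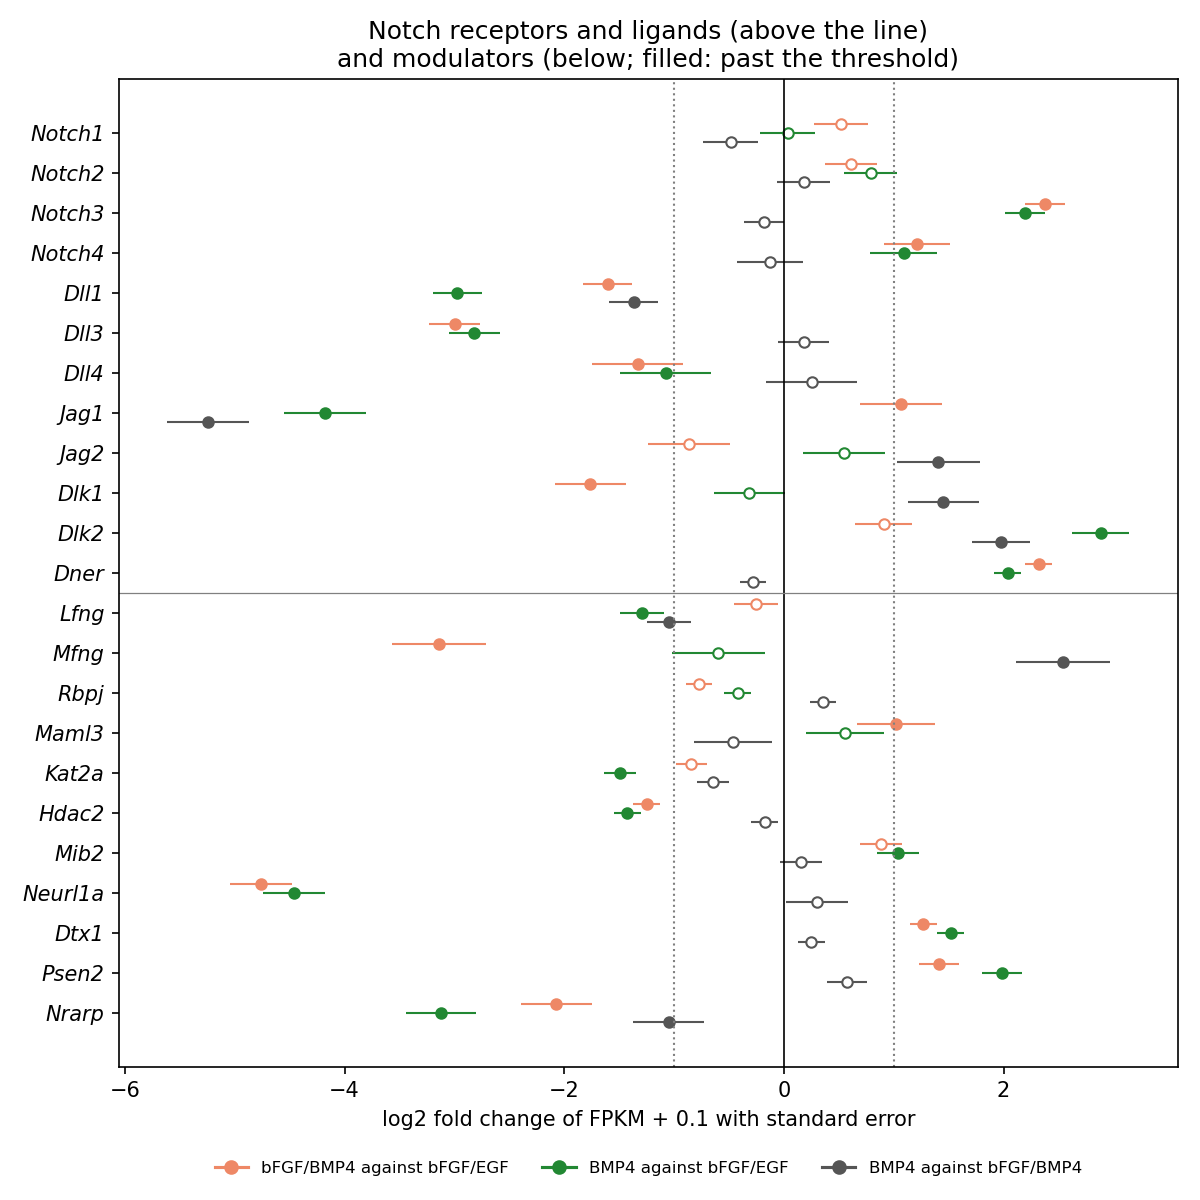
Log2 fold change of FPKM + 0.1 with its standard error (horizontal axis) of 12 Notch receptors and ligands above the line and 11 modulators below it, in 3 comparisons. Filled points passed the threshold and dotted lines mark a fold of 2. Dll1, Dll3 and Nrarp lie to the left of 0 in both comparisons with the bFGF/EGF-treated NSCs, Notch3 and Dner lie to the right, and Jag1 is at -5.24 between the BMP4-containing groups.

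Downstream, most of the 10 listed proneural genes, which Hes and Hey proteins repress, were too low to test. Atoh7, known from retinal ganglion cells, rose from 0.0990 to 7.76 and 10.7 FPKM (5.33, adjusted p = 1.2e-07, and 5.75, adjusted p = 5.5e-08). Neurod4 passed in the BMP4-treated NSCs (0.600 FPKM against 0.0827 FPKM, 1.90, adjusted p = 0.0014). That call rested on at most 5 fragments in a bFGF/EGF library and was lost at a pseudocount of 1.

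The E proteins and Groucho-family genes that passed were all lower. Of 3 E proteins, which pair with proneural factors and are bound by Hes and Id proteins, 0 rose and 1 fell with bFGF/BMP4 (median -0.63), 0 rose and 2 fell with BMP4 (median -1.02), and 0 passed between the BMP4-containing groups (median -0.39). Tcf12 fell from 41.3 to 8.91 and 7.83 FPKM (-2.20 and -2.39), and Tcf3 fell with BMP4 (-1.02, adjusted p = 1.2e-04), a call lost without any 1 of 4 libraries. Of 6 genes of the Groucho family, which includes co-repressors that Hes proteins recruit, 2 fell with bFGF/BMP4 and 4 with BMP4 (medians -0.65 and -1.20). None rose past the threshold, and 0 passed between the BMP4-containing groups (median -0.54). Tle1 was higher with bFGF/BMP4 than in the control by less than a fold of 2 (0.70, adjusted p = 0.0065). It was lower in the BMP4-treated than in the bFGF/BMP4-treated NSCs (-0.72, adjusted p = 0.012). Tle6 fell from 17.3 to 0.834 and 0.727 FPKM, Tle2 from 6.85 to 1.94 and 1.05 FPKM, and Tle5, the most abundant, was at 166, 92.7 and 71.4 FPKM and passed with BMP4 (-1.21, adjusted p = 1.3e-04). All 4 Id genes, BMP targets whose products inhibit bHLH factors, rose in both comparisons with the control (medians 2.63 and 3.30), and 2 were higher in the BMP4-treated than in the bFGF/BMP4-treated NSCs (median 0.99). Id4 went from 0.936 to 53.2 and 132 FPKM.

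Markers of other cell types were measured beside the members, and their part in these differences was not tested. The summed level of 8 endothelial markers, a cell type rich in Hey genes, was 0.567 to 0.584 FPKM in the bFGF/EGF libraries, 1.40 to 2.16 FPKM in the bFGF/BMP4 libraries and 3.02 to 4.38 FPKM in the BMP4 libraries, against 8.61 to 174 FPKM of Hey1. Of those 8 only Kdr was at a mean of 1 FPKM or more (1.18 and 3.31 FPKM in the BMP4-containing groups), the other 7 summed to 0.371 to 0.488, 0.566 to 0.778 and 0.174 to 0.336 FPKM, Cldn5 was at 0 in all libraries, and Cdh5 was at 0 in both bFGF/EGF and BMP4 and at 0.00494 FPKM in bFGF/BMP4. The 8 mural markers summed to 19.7 to 31.7, 5.75 to 6.41 and 18.1 to 28.7 FPKM, mostly Acta2 and Cspg4. Of the 5 tested, 2 passed as higher and 2 as lower with bFGF/BMP4. With BMP4 2 passed as higher (Pdgfrb and Rgs5) and 1 as lower (Cspg4). Between the BMP4-containing groups 2 were higher and 0 lower in the BMP4-treated NSCs. Pdgfrb was at means of 0.0143, 0.0707 and 0.385 FPKM and Rgs5 at 0.0430, 0.621 and 0.949 FPKM. Both calls with BMP4 were lost at a pseudocount of 1. The 6 mature astrocyte markers summed to 129 to 176, 472 to 509 and 950 to 1057 FPKM. Aqp4 among them rose (means of 0.527, 212 and 778 FPKM). Aldh1l1, which made up most of the control sum, fell in both BMP4-containing groups (means of 135, 24.2 and 58.1 FPKM). In each comparison with the control 5 of the 6 passed as higher and 1, Aldh1l1, as lower. Without Aqp4 the astrocyte markers summed to 128 to 175, 267 to 308 and 228 to 250 FPKM. Between the BMP4-containing groups 3 of the 6 were higher and 2 lower in the BMP4-treated NSCs. The 8 oligodendrocyte lineage markers summed to 1550 to 2249, 1316 to 1798 and 238 to 440 FPKM, nearly all Olig1 and Olig2. The 8 neuron and neuroblast markers summed to 78.1 to 96.4, 48.4 to 54.0 and 142 to 214 FPKM, and without Tubb3 (means of 20.3, 17.0 and 145 FPKM) to 53.1 to 78.8, 31.5 to 36.5 and 35.1 to 46.2 FPKM. The 5 ependymal markers found summed to 6.36 to 11.1, 9.94 to 10.9 and 54.8 to 64.9 FPKM, mostly Foxj1. The 5 microglia markers stayed at or below a sum of 0.876 FPKM. The 10 NSC markers summed to 1718 to 1826, 715 to 819 and 3715 to 4824 FPKM, and without Gfap, which is also an astrocyte marker (means of 0.0926, 19.4 and 2566 FPKM), to 1718 to 1826, 696 to 797 and 1534 to 1977 FPKM. Nes among them was at means of 151, 3.55 and 15.8 FPKM. Of the 10 NSC markers, 2 passed as higher and 4 as lower with bFGF/BMP4, and 4 as higher and 1, Nes, as lower with BMP4. Between the BMP4-containing groups 6 were higher and 0 lower in the BMP4-treated NSCs.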

How the data were processed

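The submitters' processing notes name fastp 0.19.7, HISAT2 2.0.5, featureCounts 1.5.0-p3 and the build mm39. The authors deposited FPKM values for 55704 genes in 9 libraries. The FPKM program, the annotation release and the strand setting are not given in the sources used here. Identifiers were matched to GENCODE vM39 (54749 found). Whole fragment numbers were recovered from the FPKM for all 30860 genes above 0 (100% within 0.02 fragments), with a library constant of 0.944 to 1.10 times the fragments, relative to its mean. Such a scaling moves all genes of a library together.

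The deposited values are FPKM, and limma 3.58.1 (R 4.3.3) with a trend was fitted on log2(FPKM + 0.1) to all libraries. It took the place of the count model of the study and was tested on simulated data. Raw counts that the paper provides were not used here. The choice decided some calls. With limma-voom, Hes1 passed in bFGF/BMP4 against bFGF/EGF (adjusted p = 0.0091) and Hes5 in BMP4 against bFGF/BMP4 (6.1e-04), and neither passed in the fit reported. Other steps used Python 3.11.15, pandas 2.3.3 and numpy 2.4.6. At 3 fragments or fewer per library a gene was taken as at the detection limit. Alternatives were a pseudocount of 1, other filters, TPM, median-ratio and quantile scaling, limma-voom on recovered fragments, only the compared groups, a replicate block and each library left out.

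The members and lists were chosen with earlier results of these data known. Named list genes were those past the threshold with the largest changes (up to 4 per direction, list and comparison) plus Notch1, Notch2, Dll1, Jag1, Rbpj and Nrarp, and for each member the 3 genes most correlated with it. Bhlhe40, Hes3, Hes2, Helt and Tle1 were named after their values were seen. Of 139 listed symbols 138 were found. Some listed genes are not reported here, and protein sequences were not analysed here.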

Additional observations from a re-analysis of the deposited data

How the results depend on the processing

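For the members, 258 of 282 values under alternatives kept their direction and side of the threshold. The count between BMP4-treated and bFGF/BMP4-treated NSCs, 0 as reported, was 1 with a pseudocount of 1, with limma-voom and with only the groups compared, and 0 to 1 with a library left out (1 without bFGF/EGF replicate 3 and without bFGF/BMP4 replicate 2). Small differences changed sign. Hes6, BMP4 against bFGF/EGF, was -0.071 on the TPM scale, -0.028 with median-ratio scaling and -0.079 with limma-voom (range with a library left out -0.19 to 0.27), against 0.02 as reported. Hey2, BMP4 against bFGF/BMP4, was -0.0031 with quantile normalization (range -0.33 to 0.36), against 0.11. The cause was not tested.

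Quantile normalization moved the median of all genes by -0.13 on the log2 scale in BMP4 against bFGF/EGF. Genes past the threshold numbered 6174, 7400 and 2738 in the 3 comparisons and 3544, 4364 and 1449 with a pseudocount of 1, and the last was 1800 with a mean FPKM of at least 1. Deviations from the group mean correlated at -0.08 to 0.12 over 9 same-numbered pairs of libraries from different groups. Over 18 differently numbered pairs they correlated at -0.15 to 0.08. With 3 libraries per group, these values cannot show whether samples of the same number were paired. With the number as a block, 4, 4 and 0 members passed, the added one being Hes1 in bFGF/BMP4 against bFGF/EGF (adjusted p = 0.032). With 0 to 4 fragments of Heyl in the bFGF/EGF and bFGF/BMP4 libraries, a difference between these groups was not detectable at this depth.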
